A study of Mus musculus with 3 samples.

Results

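Chromatin-associated RNA of 40 genes of the splicing machinery was examined: 10 SR proteins, the 4 CLK kinases, 6 further SR-related and Tra2 genes, 3 LUC7-like proteins, 3 factors of the 3′ splice site and the U2 particle, 3 RBM proteins, 2 DEAD-box helicases and 9 hnRNP and PTB proteins. The genes were chosen by symbol from a fixed list of names, with earlier results of these data known. All 40 were found among the 55536 annotated genes, of which 22028 are protein-coding. The study comprised 3 total RNA libraries, depleted of ribosomal RNA, from the chromatin fraction of C57BL/6J macrophages grown from bone marrow, with no genetic change named in the labels. All 3 were of 1 condition: Lipid A, the membrane anchor of lipopolysaccharide that Toll-like receptor 4 binds, was given at 100 ng/ml for 12 h, removed for 12 h and given again at 100 ng/ml for 120 min. The starting RNA was 1 µg for replicate 1, 250 ng for replicate 2 and 500 ng for replicate 3. The 3 libraries carry different replicate numbers but 1 donor identifier, the age and sex of the mice were not collected, and no untreated group is analysed here, so levels are described and not tested, and the SD over libraries may be technical. A level in such bulk RNA cannot tell fewer cells from less RNA per cell.

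SR proteins carry serine- and arginine-rich tails, bind exons and help the U1 particle and U2AF to find splice sites, and CLK kinases phosphorylate those tails, while hnRNP proteins often act against them. Many of these genes control their own output by 2 routes: a poison exon, an extra exon with an in-frame stop codon whose inclusion sends the mRNA to nonsense-mediated decay, and introns that stay in polyadenylated RNA within the nucleus. Nonsense-mediated decay needs translation in the cytoplasm, so chromatin RNA is sampled before it, and chromatin RNA also holds nascent transcripts that have not finished splicing. The annotation sorts the isoforms of each gene into types, and here the type retained_intron marks models that hold intron sequence, nonsense_mediated_decay marks models with a stop codon upstream of a later splice junction, and processed_transcript marks models with no assigned reading frame.

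Of the 75 isoforms typed nonsense_mediated_decay in these genes, 29 isoforms of 16 genes ended their reading frame in an internal exon that overlapped no coding exon of a protein_coding isoform. They used 23 distinct exons of 40 to 460 bases (median 109), of which 21 lay outside every exon of the protein_coding isoforms and 14 reached the stop within 50 bases. A selection of 8 of these exons is shown, from SR, Tra2, Srrm2 and Rbm39 genes, because the isoforms that carry them are described later. Each is printed 5′ to 3′ from its first base to its stop codon, which is in capitals, from the GENCODE M21 transcript sequences on mm10.
Srsf3 poison exon (456 bases, chr17:29039454-29039909, plus strand): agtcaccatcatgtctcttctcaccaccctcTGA
Srsf7 poison exon (460 bases, chr17:80204622-80205081, minus strand): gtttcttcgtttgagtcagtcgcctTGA
Srsf4 poison exon (207 bases, chr4:131884276-131884482, plus strand): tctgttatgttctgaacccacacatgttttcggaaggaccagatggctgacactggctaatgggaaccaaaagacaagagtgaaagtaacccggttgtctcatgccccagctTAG
Tra2a poison exon (306 bases, chr6:49252803-49253108, minus strand): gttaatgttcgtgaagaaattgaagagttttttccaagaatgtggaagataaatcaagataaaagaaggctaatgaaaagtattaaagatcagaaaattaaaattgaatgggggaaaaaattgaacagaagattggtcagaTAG
Tra2b poison exon (276 bases, chr16:22258986-22259261, minus strand): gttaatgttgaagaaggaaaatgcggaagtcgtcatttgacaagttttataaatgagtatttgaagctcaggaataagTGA
Srrm2 poison exon (261 bases, chr17:23811817-23812077, plus strand): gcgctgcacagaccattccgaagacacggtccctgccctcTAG
Rbm39 poison exon of isoform 223 (72 bases, chr2:156174097-156174168, minus strand): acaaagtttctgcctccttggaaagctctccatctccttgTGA
Rbm39 poison exon of isoform 225 (73 bases, chr2:156178880-156178952, minus strand): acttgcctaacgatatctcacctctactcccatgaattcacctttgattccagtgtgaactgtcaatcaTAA
In Srsf3 and Srsf7 the stop came 34 and 28 bases into an exon of over 450 bases, and the Tra2a and Tra2b exons opened with the same 9 bases, gttaatgtt, and then parted.

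A second set of sequences comes from the introns that the leading retained_intron isoform of each CLK gene keeps, since these 4 genes share the feature. The 5′ splice sites of the matching intron are shown with 10 exon bases, the first 2 intron bases in capitals and 18 more intron bases.
Clk1 (intron of 387 bases, chr1:58419734-58420120, minus strand): agtgcaagatGTatagaatatttttcaaca
Clk4 (intron of 391 bases, chr11:51273169-51273559, plus strand): agagcaagatGTatagaatatttttcaaca
Clk2 (intron of 346 bases, chr3:89169703-89170048, plus strand): caagagcgatGTacaagccaaatcgtaaca
Clk3 (intron of 276 bases, chr9:57758351-57758626, minus strand): caagagcgatGTacagccacctttcgtaaa
Clk1 and Clk4 were identical at 29 of these 30 bases, and all 20 bases on the intron side were the same. Clk2 and Clk3 were identical at 19 of 30, and Clk1 and Clk2 at 14 of 30. At the 3′ end of the same introns Clk1 and Clk4 were identical at 19 of 30 bases. In the leading retained_intron isoforms of Clk1 and Clk4 this intron and the one before it, of 871 bases in Clk1 and 1055 bases in Clk4, flank an exon of 91 bases (chr1:58420121-58420211 in Clk1). Clk3 has an exon of 97 bases in that place. The exon is part of the 1 protein_coding isoform of Clk1 and of 2 of 4 in both Clk3 and Clk4. It is missing from all 2, 1 and 3 nonsense_mediated_decay isoforms of Clk1, Clk3 and Clk4, and neither length is a multiple of 3.

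**Figure D1:**
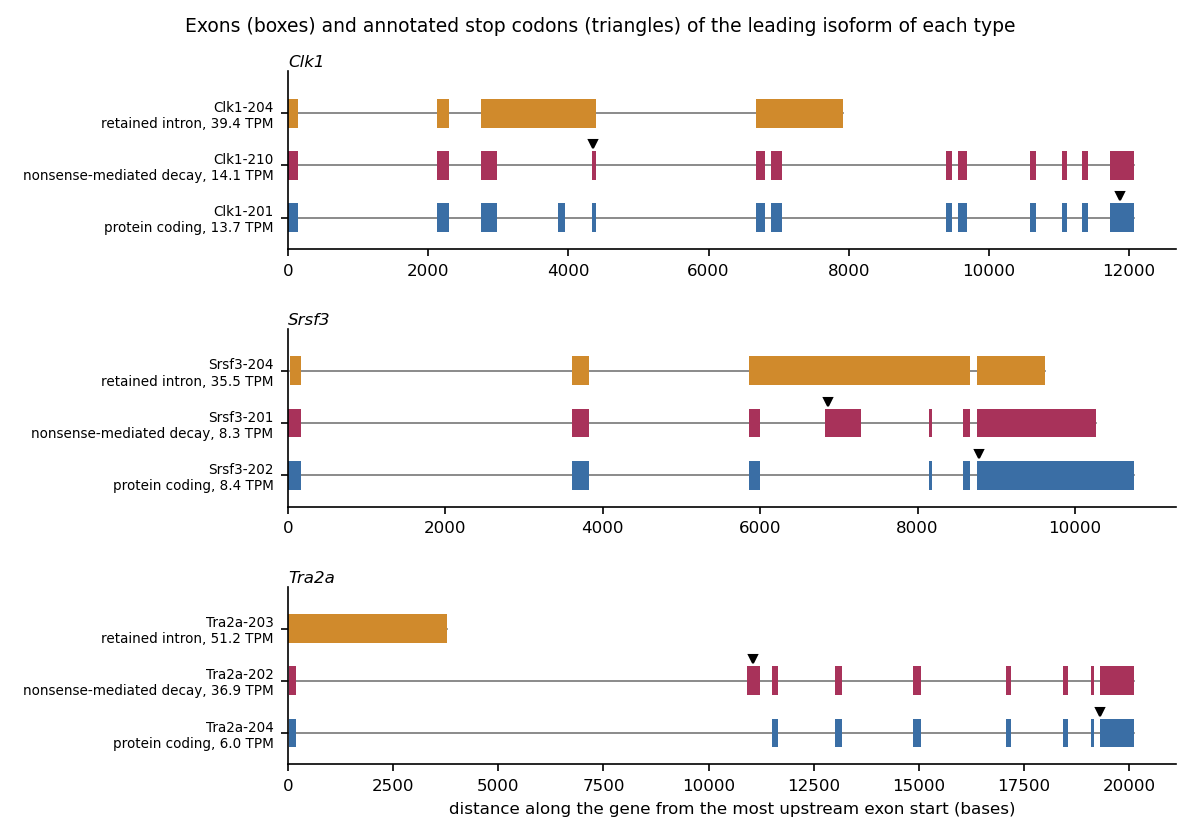
Exon maps of the leading isoform of each type in Clk1, Srsf3 and Tra2a, by distance along the gene in bases. Boxes are exons, triangles mark annotated stop codons and the mean TPM of 3 libraries stands beside each isoform. Clk1-210 lacks the 91-base exon, Srsf3-201 and Tra2a-202 hold exons of 456 and 306 bases that the protein_coding isoform lacks, and Srsf3-204 keeps the whole 2150-base intron in which the Srsf3 poison exon lies.

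The libraries held 10293545, 17820066 and 17548564 expected counts in replicates 1, 2 and 3, so replicate 1 was the shallowest. Levels are in TPM, a measure per transcript length in which each library has the same sum. All 8 macrophage markers checked, among them Adgre1 and Spi1, were expressed, and none of 8 markers of other cell types was, with Cd3e, Ly6g, Hbb-bs and Epcam at 0 in every library. Markers aside, 3 library facts move with the results below. Replicate 1 had the most input RNA, the fewest counts and the most Hspa1a, a heat-shock gene. Hspa1a stood at 14.5, 1.64 and 1.65 TPM in replicates 1, 2 and 3, and Hspa1b at 14.4, 2.11 and 1.93 TPM. Hsph1 (5.98, 9.23 and 11.05 TPM), Dnajb1, Hsp90aa1 and Hsf1 were instead lowest in replicate 1, so the heat-shock genes checked did not all move the same way. The part of these library facts in any difference between libraries was not tested.

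All 40 genes were expressed (at least 1 TPM in every library), as were 42.0% of protein-coding genes. In every library 39 of the 40 exceeded the median level of expressed protein-coding genes (12.0 TPM), as did 44.0% of those genes. The exception was Srsf9, an SR protein with a short tail. The median of log2(TPM + 0.1) over the 40 genes was 6.97, 7.59 and 7.24 in replicates 1, 2 and 3 (7.27 ± 0.31, SD, n = 3), against 3.33, 3.81 and 3.60 over the 9245 expressed protein-coding genes (3.58 ± 0.24). On that scale the genes lay 12.9-fold above the median gene, and together they held 1.84 ± 0.24% of all expected counts (SD, n = 3).

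The order of levels ran from Rsrp1 at 904 ± 304 TPM through Ddx5 (697 ± 223), Srsf5 (662 ± 185), Rbm39 (658 ± 150) and Hnrnpa2b1 (581 ± 326) down to Luc7l (36.3 ± 15.7), Srsf4 (32.2 ± 1.80) and Srsf9 (12.9 ± 2.91, SD, n = 3 each). Of the 39 pairs of neighbours in this order, 37 had overlapping ranges over the libraries. The gaps were between Clk2 and Srsf7, and between Srsf4 and Srsf9. Most neighbouring ranks are thus within the spread between libraries.

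**Figure D2:**
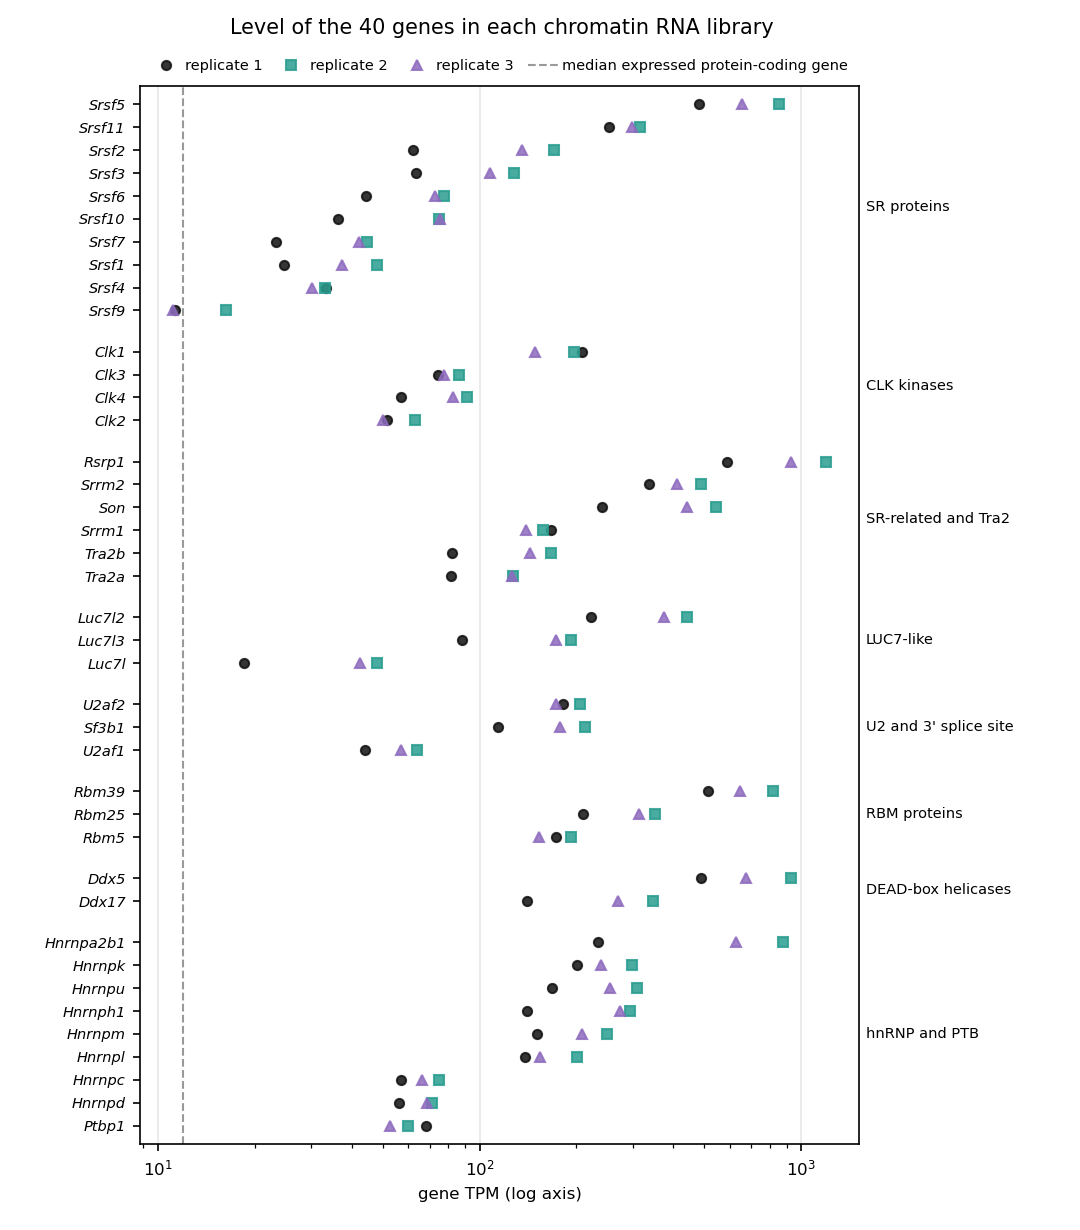
Gene TPM on a log axis for the 40 genes by role, with 1 symbol per library. The dashed line is the median expressed protein-coding gene at 12.0 TPM, Rsrp1 lies at the top at 587 to 1193 TPM, and Srsf9 at 11.2 to 16.3 TPM alone touches the line.

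Across the 475 isoforms of these genes, most of the abundance was not in protein_coding models. Retained_intron isoforms held 46.3%, 49.3% and 49.2% of the summed TPM in replicates 1, 2 and 3 (48.3 ± 1.70%, SD, n = 3). Protein_coding isoforms held 25.1 ± 1.70%, processed_transcript isoforms 13.7 ± 0.75% and nonsense_mediated_decay isoforms 12.9 ± 0.74%. Retained_intron isoforms numbered 152 in 36 genes, and 139 of them had a TPM above 0 in every library. The 75 nonsense_mediated_decay isoforms belonged to 34 genes, and 44 of them had a TPM above 0 in every library. The genes are richly annotated, with a median of 10.5 isoforms against 6 in expressed protein-coding genes, and 90% of them against 64.5% have a retained_intron model.

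Set beside other genes with such a model, the share was higher for introns and the protein_coding share was lower. The median retained_intron share was 54.0%, 61.8% and 59.9% over 36 of the genes (58.5 ± 4.08%, SD, n = 3), against 45.4%, 48.2% and 47.6% over 5967 expressed protein-coding genes (47.0 ± 1.49%). The median protein_coding share was 26.9 ± 2.03% over the 40 genes and 53.8 ± 0.32% over 9226 genes, which were not limited to genes with models of other types. A retained_intron model exists in 90% of the 40 genes and 64.5% of expressed protein-coding genes. For a nonsense_mediated_decay model it is 85% and 31.9%, so the sets of this comparison are unlike in annotation. The median nonsense_mediated_decay share was 9.59%, 5.50% and 7.43% over 34 of the genes (7.51 ± 2.04%), against 5.79%, 4.43% and 4.32% over 2951 genes (4.85 ± 0.82%). By the read-based quantification the decay-targeted medians were close, at 9.71 ± 2.49% over the 34 genes and 9.00 ± 0.94% over 3417 genes.

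Counted per gene, 21 of 36 had over 50% of their TPM in retained_intron isoforms in every library, and 33.3% of expressed protein-coding genes with such an isoform did so. By the read-based values 15 of 36 did, against a background of 34.4%. With the threshold at 30% by alignment, 26 of 36 did, against 3846 of 5967 expressed protein-coding genes, so the contrast was smaller. For nonsense_mediated_decay isoforms, 9 of 34 exceeded 10% in every library by alignment, against a background of 22.9%. By the read-based values 11 of 34 did, against 1283 of 3417 genes, and by expected counts 7 of 34, against 607 of 2951. The 40 genes were thus not set apart by this count. The isoform of highest TPM was of a type other than protein_coding in every library for 26 of 40 genes by alignment. The background was 28.4% (2460 of 8647 genes). By expected counts 21 of 40 did so, beside 1742 genes. By the read-based values 28 of 40 did so, beside 4431 genes, with 11344 in place of 9245 protein-coding genes expressed, so the background was larger there. By alignment-based TPM the leading isoform was a retained_intron model throughout in 19 genes, a processed_transcript model in Hnrnph1, Hnrnpm and Srsf10, and a nonsense_mediated_decay model in Ddx5 and Hnrnpu. Protein_coding isoforms led in every library in 8 genes: Ddx17, Hnrnpc, Luc7l3, Sf3b1, Srrm2, Srsf1, Srsf4 and Srsf9.

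**Figure D3:**
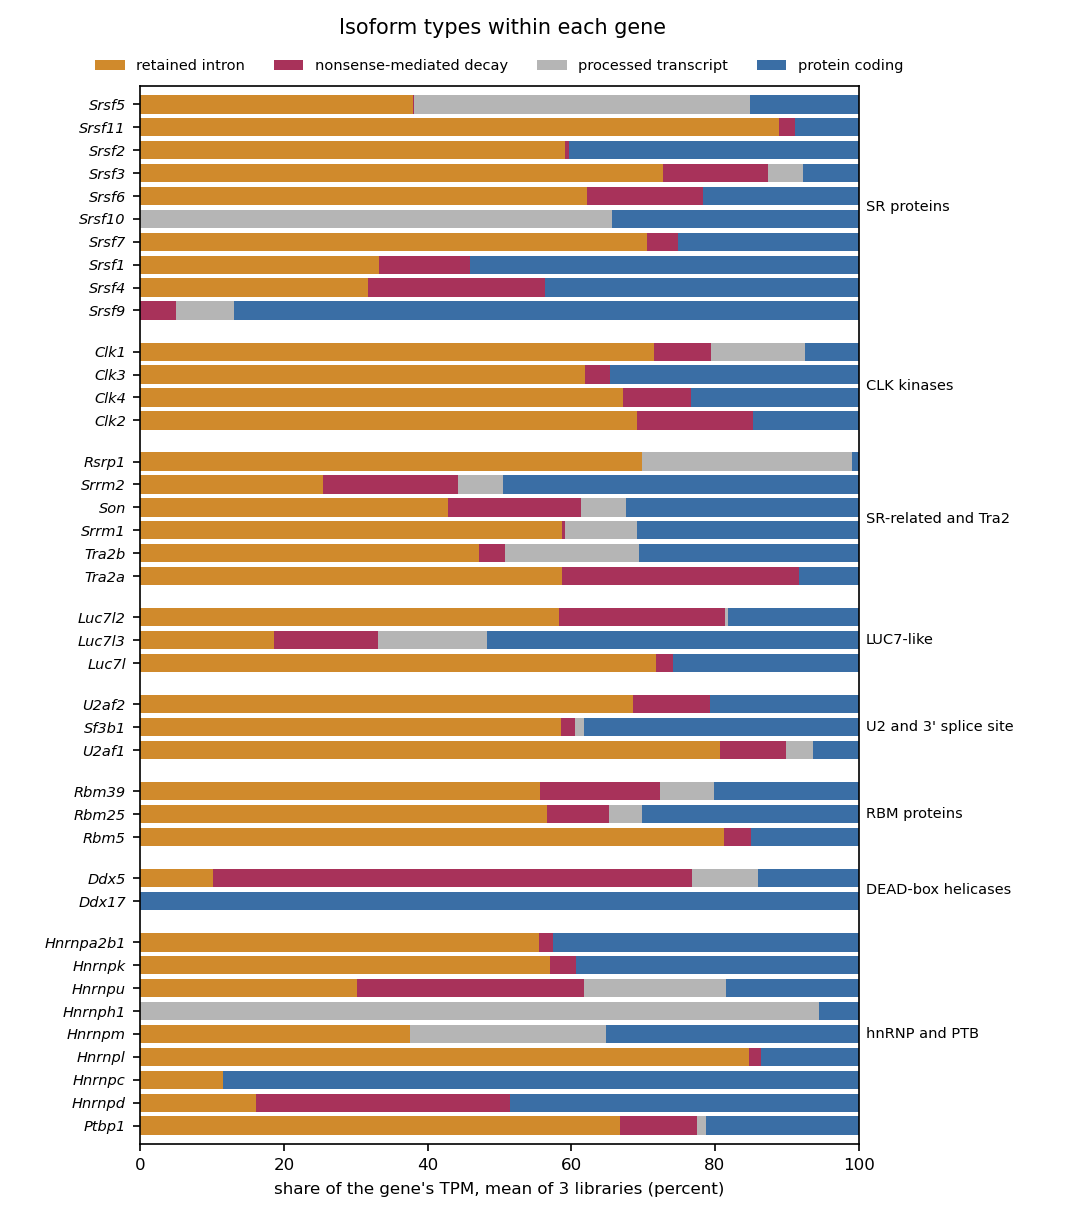
Mean share of each gene's TPM by isoform type over 3 libraries, in percent, by role. Retained_intron shares reach 88.9% in Srsf11 and 84.8% in Hnrnpl, nonsense_mediated_decay leads in Ddx5 at 66.7%, and Ddx17 is at 100% protein_coding because it has no isoform of the other types.

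**Figure D4:**
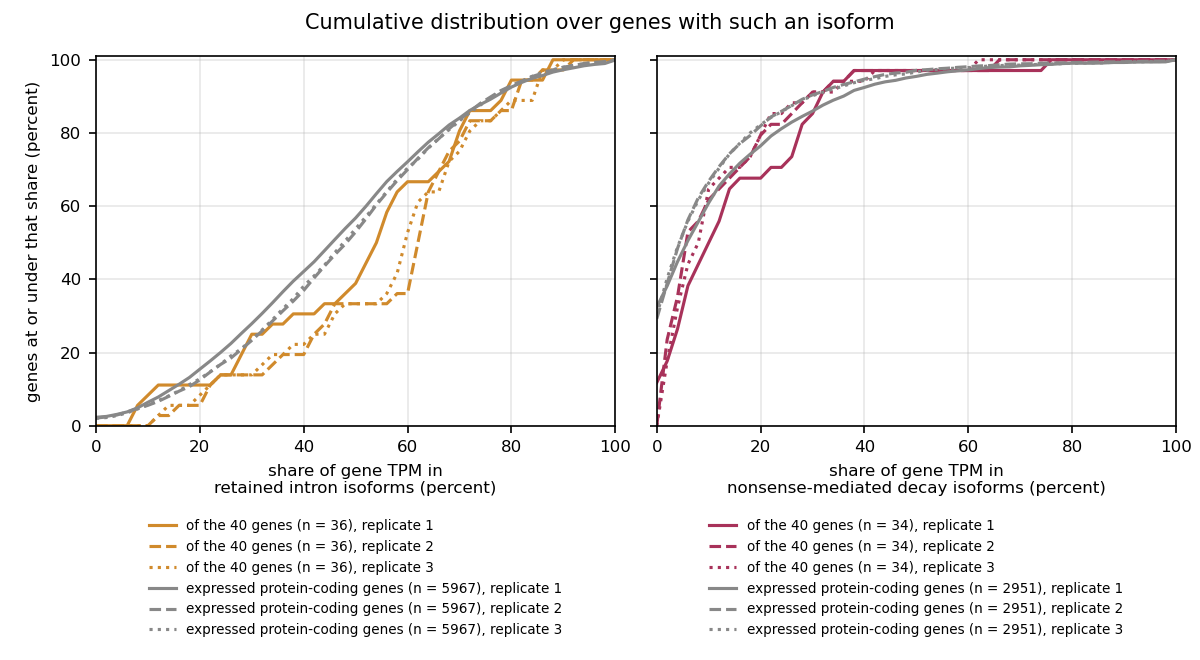
Cumulative percent of genes at or under a given isoform share, for 36 (left) and 34 (right) of the 40 genes in colour and for all expressed protein-coding genes with such an isoform in grey, with 1 line per library. The coloured retained_intron curves reach the middle of the genes at 54.0% to 61.8%, against 45.4% to 48.2% in grey, while the decay-targeted curves lie closer together.

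A retained_intron model need not keep a complete intron of a coding isoform. The leading retained_intron isoform spanned at least 1 whole intron of a protein_coding isoform, with exon on both sides, in 17 of 36 genes, and 48 of the 152 retained_intron isoforms did so, in 23 genes. The others span no whole intron of a protein_coding isoform, and where their intron sequence lies was not examined for each. An example is Tra2a-203, a single exon of 3788 bases that begins with the first exon and runs into the first intron. These tables cannot tell RNA that keeps an intron for good from RNA that had not yet been spliced. In 4 genes, Srsf3, Srsf7, Srrm1 and Sf3b1, the kept intron of the leading retained_intron isoform contains a poison exon, so reads within that exon match both isoforms.

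Among the SR proteins, retained_intron isoforms held a median of 60.7% over the 8 genes that have them. By alignment 5 of these 8 stayed over 50% in every library, against a background of 33.3%, and by the read-based values Srsf3 did not. Srsf5, which promotes exon inclusion, was the highest at 481, 851 and 654 TPM in replicates 1, 2 and 3, and Srsf11 followed at 252, 315 and 299 TPM. Srsf11 had 87.5%, 91.0% and 88.2% in retained_intron isoforms, spread over 11 models of which none spans a whole coding intron and of which Srsf11-208 led at 28.4, 83.0 and 75.6 TPM. Its mean share was the highest of the 36 genes by alignment, although Hnrnpl was higher in replicate 1. By the read-based values Srsf11 averaged 77.3%, below Hnrnpl at 85.2% and Rbm5 at 82.4%. Srsf5 had 27.8%, 41.3% and 44.8%, with replicate 1 lowest, and its leading model Srsf5-212 (104, 282 and 241 TPM) keeps an intron of 1229 bases. By expected counts in place of TPM that Srsf5 share was 67.4%: Srsf5-212 has 2720 bases, and the processed_transcript model Srsf5-206, at 156, 330 and 237 TPM, has 886. Srsf9, at 11.3, 16.3 and 11.2 TPM, has no retained_intron model, and its decay-targeted isoform Srsf9-205 stayed under 1 TPM. Srsf10, which has neither kind of model, averaged 62.2 ± 22.4 TPM (SD, n = 3).

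Srsf3, Srsf7 and Srsf2 had most of their TPM in retained_intron isoforms in every library by alignment. By the read-based values Srsf3 had 39.3%, 64.5% and 61.2%, so not most in replicate 1. Srsf3, the smallest SR protein, had 63.3, 128 and 108 TPM, and Srsf7, a zinc-knuckle SR protein that takes part in mRNA export, had 23.3, 44.8 and 42.1 TPM. The retained_intron share of Srsf3 was 58.6%, 80.6% and 79.0%, and that of Srsf7 was 57.5%, 76.7% and 77.3%. In both genes replicate 1 lay below replicates 2 and 3, which were close to each other. The leading models were Srsf3-204 at 20.3, 44.9 and 41.4 TPM and Srsf7-207 at 5.33, 23.7 and 19.9 TPM, and both keep the intron that contains the poison exon printed above. The single protein_coding isoform of Srsf3 stood at 2.62, 12.7 and 9.80 TPM, below Srsf3-204 in every library. Srsf2, which stabilises the binding of early spliceosome components, had 62.0, 170 and 135 TPM. Its only retained_intron model, Srsf2-203, held 52.0%, 63.6% and 61.7% of it, and its decay-targeted share did not exceed 0.9%.

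Srsf1, Srsf4 and Srsf6 ranged from about the share of Srsf2 to well below it. Srsf1, the founding SR protein, had 24.7, 48.0 and 37.3 TPM and 22.4%, 41.2% and 36.0% in retained_intron isoforms, led by Srsf1-203 at 3.02, 11.8 and 9.14 TPM. By expected counts the mean retained_intron share of Srsf1 was 7.4%. Srsf4 had 33.4, 33.0 and 30.1 TPM with 26.5%, 35.5% and 33.0%, all in the 1 model Srsf4-201. Srsf6 had 44.4, 77.5 and 72.6 TPM, and its 1 retained_intron model, Srsf6-204, held 55.8%, 64.4% and 66.5%. In all 3 genes replicate 1 had the lowest intron share, while its TPM was lowest in Srsf1 and Srsf6 but not in Srsf4.

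Decay-targeted shares of several SR genes differed between libraries more than their means do. Srsf3 had 30.8%, 6.6% and 6.5% in nonsense_mediated_decay isoforms, Srsf6 had 30.02%, 9.5% and 8.8%, Srsf1 had 27.8%, 4.9% and 5.7%, and Srsf7 had 10.3%, 0.7% and 2.3%. Replicate 1 was the highest in all 4 genes, and replicates 2 and 3 were close together. Replicate 1 was also the highest by the read-based quantification, with 20.6%, 4.6% and 4.4% for Srsf3, 30.5%, 8.6% and 9.4% for Srsf6 and 26.2%, 3.2% and 4.0% for Srsf1. The Srsf3 poison-exon isoform, Srsf3-201, differed less in TPM, at 9.38, 8.48 and 7.02 TPM. Its expected counts were 281, 308.4 and 283, not corrected for the lower depth of replicate 1. The whole gene was lowest in replicate 1, at 63.3 TPM against 128 and 108, so the share of Srsf3-201 was highest there. The rest of the replicate 1 decay-targeted share came from Srsf3-206, a 526-base model at 10.1 TPM in replicate 1 that is listed at 0 in the other libraries. Srsf1-204 had 6.86, 1.55 and 2.11 TPM on 62.8, 15.5 and 23.4 expected counts. Srsf7-203, whose stop is in the exon printed above, had 2.41, 0.31 and 0.97 TPM on 54.4, 8.4 and 29.1 expected counts. Srsf6-201 had 13.3, 7.33 and 6.36 TPM and uses the stop codon of a protein_coding isoform with a splice junction after it. Srsf4 differed less, with 25.2%, 27.2% and 21.7%, mainly in Srsf4-204 (6.34, 7.10 and 6.08 TPM). The Srsf4 poison-exon isoform Srsf4-203 was rarer, at 2.10, 1.87 and 0.47 TPM, and the read-based mean of the Srsf4 share was 46.0% against 24.7% by alignment. Srsf2-204, Srsf5-208 and Srsf11-210 stayed under 8 TPM in every library.

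All 4 CLK kinases had most of their abundance in retained_intron isoforms in every library, against a background of 33.3%. Clk1, the founding member of the family, had 208, 197 and 148 TPM, and 79.9%, 68.4% and 66.1% of it was in retained_intron isoforms. Clk2 had 51.4, 62.9 and 50.2 TPM with 68.3%, 67.8% and 71.5%. Clk3 had 74.4, 86.5 and 77.5 TPM with 65.3%, 61.0% and 59.3%. Clk4, the nearest relative of Clk1, had 57.2, 91.6 and 82.6 TPM with 66.6%, 63.6% and 71.2%. Clk1 exceeded the other 3 kinases in every library. By alignment-based TPM the intron share of Clk3 lay below those of Clk1 and Clk2 in their library ranges, while the other ranges overlapped. By the read-based values the order of Clk3 and Clk2 was reversed, at 71.0%, 60.2% and 60.6% against 57.7%, 56.6% and 54.5%. By expected counts the means were 72.8% in Clk3 and 68.8% in Clk2. The leading models were Clk1-204 (22.2, 54.7 and 41.2 TPM), Clk3-203 (16.3, 33.0 and 26.3 TPM), Clk4-213 (12.2, 20.6 and 17.4 TPM) and Clk2-206 (9.59, 13.6 and 13.0 TPM), all of which keep the intron whose 5′ splice site is printed above. In Clk1 another model, Clk1-213, a 724-base one, stood at 72.1 TPM in replicate 1 but at 10.8 and 7.16 TPM in replicates 2 and 3. Clk1-213 spans no whole coding intron, and in replicate 1 models that span one made up 16.4% of the retained_intron TPM, against 48.5% and 49.4% in replicates 2 and 3.

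The protein_coding and decay-targeted CLK isoforms were lower. The exon-skipping isoform Clk1-210 had 10.8, 17.7 and 14.0 TPM, and the protein_coding isoform Clk1-201, which includes the 91-base exon, had 14.0, 15.7 and 11.4 TPM. The ranges overlapped, so these 2 isoforms were not separated by the spread between libraries. As shares of the gene, nonsense_mediated_decay isoforms held 5.2%, 9.0% and 9.6% in Clk1 and 10.2%, 19.2% and 19.1% in Clk2, where Clk2-204 led at 5.26, 12.1 and 9.59 TPM. Clk3-209 had 0.89, 4.05 and 3.45 TPM and Clk4-204 had 4.13, 2.96 and 4.07 TPM. The decay-targeted share of Clk4 differed between the quantifications, at 12.3%, 10.2% and 6.1% by alignment and 33.9%, 24.8% and 24.1% read-based, a difference larger than the spread between libraries.

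Among the SR-related and Tra2 genes, Rsrp1, an arginine- and serine-rich protein, was the highest of all 40 at 587, 1193 and 932 TPM. Its 1 retained_intron model, Rsrp1-204, held 69.9%, 70.6% and 69.1%, keeps an intron of 1302 bases and rested on 14606, 36622 and 30989 expected counts, while protein_coding isoforms held 1.8%, 0.5% and 0.5%. By the read-based values the Rsrp1-204 share was lower and less even, at 33.3%, 62.0% and 57.7%, with replicate 1 lowest. Son, a nuclear speckle scaffold, had 240, 544 and 443 TPM with 36.5%, 45.6% and 46.6% in retained_intron and 20.7%, 18.2% and 16.6% in nonsense_mediated_decay isoforms, led by Son-213 (54.5, 160 and 132 TPM) and Son-212 (35.0, 57.3 and 44.2 TPM). By expected counts the mean retained_intron share of Son was 15.7%. Srrm1, a cofactor in exon definition, and Tra2b, a splicing activator that binds purine-rich exons, averaged 155 ± 14.1 and 131 ± 43.9 TPM (SD, n = 3 each).

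Srrm2, the large scaffold of nuclear speckles, had 337, 489 and 410 TPM, and its isoform shares differed between libraries in the other direction from those of Srsf1, Srsf3 and Srsf6. Its nonsense_mediated_decay share was 6.1%, 25.5% and 24.7%, lowest in replicate 1, and its retained_intron share was 33.4%, 21.9% and 21.1%, highest in replicate 1. The decay-targeted part was nearly all Srrm2-203, at 19.2, 123 and 100 TPM, which reaches its stop 43 bases into the exon printed above. This model has 494 bases beside 8864 bases of the protein_coding Srrm2-210, and by expected counts the decay-targeted share was 1.1% and the retained_intron share 4.4%. The leading retained_intron model Srrm2-209 had 74.6, 72.0 and 56.3 TPM. On TMM-scaled CPM, a depth-corrected count, Srrm2 was the steadiest of the 40 genes, with an SD of 0.02 on the log2 scale.

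Tra2a, a splicing activator and relative of Tra2b, had the highest mean decay-targeted share of the genes whose exon is printed. Its level was 81.5, 127 and 126 TPM, of which 32.8%, 32.0% and 34.3% lay in the 1 nonsense_mediated_decay isoform, Tra2a-202. That isoform had 26.7, 40.8 and 43.3 TPM on 635, 1164 and 1369 expected counts, against 3.68, 6.66 and 7.67 TPM for Tra2a-204, the protein_coding isoform of highest mean. The other protein_coding isoform, Tra2a-201, had 6.81, 0.19 and 0.60 TPM and was the higher of the pair in replicate 1. Neither range overlapped that of Tra2a-202, and the read-based shares were 50.1%, 47.2% and 49.8%. Retained_intron isoforms held a further 54.4%, 62.6% and 59.1%, led by Tra2a-203 (30.8, 64.2 and 58.7 TPM). Tra2b-206, with the Tra2b exon printed above, was at 3.15, 4.71 and 4.34 TPM, below Tra2a-202 in every library, and decay-targeted isoforms were 4.5%, 3.2% and 3.0% of Tra2b. On the opposite strand, 1612 bases of Tra2a overlap a predicted gene, Gm43980, at a mean of 46.7 TPM, and whether counting used strand is not given.

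The LUC7-like proteins, relatives of a yeast U1 component, spanned low and high intron shares. Luc7l2 had 222, 443 and 373 TPM with 50.4%, 62.9% and 61.7% in retained_intron isoforms and 28.7%, 20.2% and 20.5% in nonsense_mediated_decay isoforms. Its leading models Luc7l2-206 (50.1, 109 and 89.3 TPM) and Luc7l2-204 (55.6, 58.7 and 48.2 TPM) were of similar size in replicate 1, and Luc7l2-206 was the higher in replicates 2 and 3. Luc7l had 18.5, 48.1 and 42.4 TPM with 69.8%, 71.9% and 73.8% in retained_intron isoforms, led by Luc7l-204 (9.01, 24.3 and 23.0 TPM), and its decay-targeted Luc7l-206 stayed under 2 TPM. Luc7l3 had 88.3, 192 and 172 TPM and was among the lowest in retained_intron share, at 10.4%, 23.5% and 22.1%, or 3.1% by expected counts, led by Luc7l3-208 (6.36, 22.9 and 22.7 TPM). Its decay-targeted share was 26.9%, 4.7% and 11.9%, with Luc7l3-204 at 23.7, 8.98 and 20.5 TPM, so that replicate 1 was highest and the other libraries differed from each other.

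All 3 genes of 3′ splice site recognition had over 50% in retained_intron isoforms in every library, against a background of 33.3%. U2af1 and U2af2 encode the small and large subunits of U2AF, which bind the 3′ splice site and the pyrimidine tract before it, and Sf3b1 is a core component of the U2 particle. U2af1 had 44.1, 63.7 and 56.9 TPM and 71.0%, 85.5% and 85.5%, U2af2 had 182, 205 and 172 TPM and 71.5%, 66.4% and 67.8%, and Sf3b1 had 114, 213 and 178 TPM and 55.5%, 60.1% and 60.0%. Replicate 1 was thus lowest for U2af1 and Sf3b1 and highest for U2af2. The leading retained_intron models were U2af2-207 (76.2, 59.1 and 48.3 TPM), Sf3b1-203 (35.1, 78.8 and 64.6 TPM) and U2af1-206 (13.9, 21.3 and 22.5 TPM). Decay-targeted isoforms reached 17.4 TPM in U2af2-204, and U2af1-208 and Sf3b1-208 stayed under 6 TPM.

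The RBM proteins were all expressed above 150 TPM in every library. Rbm39, a U2AF-related coactivator, had 514, 814 and 647 TPM with 53.6%, 57.5% and 56.0% in retained_intron isoforms, led by Rbm39-210 (136, 87.2 and 64.3 TPM), and 15.4%, 16.7% and 18.1% in nonsense_mediated_decay isoforms. The isoforms with the poison exons printed above, Rbm39-223 and Rbm39-225, had 25.8, 64.2 and 60.5 TPM and 27.0, 40.3 and 31.9 TPM. Rbm5, which regulates splicing of apoptosis genes, had 172, 193 and 153 TPM with 76.8%, 81.1% and 85.9% in retained_intron isoforms, led by Rbm5-219 (26.7, 40.6 and 31.2 TPM), and its decay-targeted Rbm5-210 had 14.5, 1.26 and 2.94 TPM. Rbm25, a U1-associated regulator, had 210, 351 and 313 TPM, and its leading models were Rbm25-206 (33.9, 86.3 and 74.4 TPM) and the poison-exon isoform Rbm25-208 (24.8, 15.5 and 24.4 TPM).

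The related RNA helicases Ddx5 and Ddx17 differed in how they are annotated. Ddx5 had 488, 932 and 671 TPM, and nonsense_mediated_decay isoforms held 74.7%, 64.6% and 60.8% of it, the highest share of the 34 genes. Ddx5-208, a 3593-base model of 12 exons, accounted for 297, 601 and 406 TPM on 12532, 31212 and 23361 expected counts, against 33.3, 110 and 90.8 TPM for the protein_coding Ddx5-201 of 3559 bases. The 2 models are close in length, and their ranges did not overlap. The smaller Ddx5-205 was at 67.6 TPM in replicate 1 and at 0.31 and 1.36 TPM in replicates 2 and 3. Retained_intron isoforms were 6.9%, 10.1% and 13.5%, all in Ddx5-202 (33.7, 93.8 and 90.3 TPM), which keeps an intron of 82 bases. Ddx17 had 140, 347 and 270 TPM and has 4 isoforms, all protein_coding.

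Among hnRNP and PTB genes, 2 of the 8 genes with retained_intron isoforms stayed over 50% in every library by alignment. That is no more than the background of 33.3%, and by the read-based values Ptbp1 did not stay over 50%. Hnrnpl, which binds CA-rich RNA, had 138, 201 and 154 TPM with 87.9%, 81.9% and 84.6%, led by Hnrnpl-206 (47.0, 51.9 and 42.7 TPM). Ptbp1, the polypyrimidine tract-binding repressor, had 68.0, 60.0 and 52.7 TPM with 79.6%, 60.4% and 60.2%, led by Ptbp1-204 (24.8, 8.59 and 8.71 TPM). The mean for Ptbp1 was 66.8% by alignment and 46.7% read-based, the widest gap in a retained_intron share between the quantifications. Hnrnpc, a binder of uridine tracts, had 57.2, 74.6 and 66.3 TPM and only 7.7%, 15.2% and 11.8%, and Hnrnpd, also known as AUF1, had 56.4, 71.3 and 68.5 TPM and 9.4%, 20.1% and 18.9%. Replicate 1 was the highest for Hnrnpl and Ptbp1 and the lowest for Hnrnpc and Hnrnpd. The leading retained_intron models of Hnrnpc and Hnrnpd were Hnrnpc-208 (4.39, 6.62 and 5.14 TPM) and Hnrnpd-206 (5.29, 14.3 and 12.9 TPM). By expected counts their mean shares were 3.2% and 3.0%.

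Among the hnRNP genes of the 40, Hnrnpd and Hnrnpu, a chromatin-bound scaffold protein also called SAF-A, had over 10% in nonsense_mediated_decay isoforms throughout. Outside the 40 genes, Hnrnpa1 also exceeded 10%, at 87.0%, 94.3% and 90.8%, as did Hnrnpdl and Hnrnpll. Hnrnpd had 27.3%, 37.5% and 41.5%, with Hnrnpd-208 at 0.99, 21.5 and 23.0 TPM. Hnrnpu had 168, 308 and 254 TPM and 36.5%, 28.6% and 29.9%, with Hnrnpu-206 at 46.1, 83.0 and 70.1 TPM. The retained_intron share of Hnrnpu was 28.2%, 32.1% and 30.2%, led by Hnrnpu-202 (37.1, 77.1 and 60.8 TPM), or 5.6% on average by expected counts. Both genes thus kept a large decay-targeted part, although Hnrnpd-208 itself was nearly absent from replicate 1. Hnrnpk, a poly(C)-binding protein, had 201, 297 and 239 TPM with 43.8%, 64.6% and 62.5% in retained_intron isoforms, led by Hnrnpk-204 (20.2, 61.3 and 51.2 TPM). Hnrnpa2b1 varied the most of the 40 genes, at 234, 880 and 628 TPM, with 46.1%, 60.6% and 59.7% in retained_intron isoforms, led by Hnrnpa2b1-208 (44.0, 257 and 177 TPM). Replicate 1 was the lowest for level and intron share in both Hnrnpk and Hnrnpa2b1. Hnrnph1, a binder of G-rich runs, had 140, 294 and 273 TPM, and 94.5% of it on average was in processed_transcript models. Among the rarer decay-targeted models, Hnrnpa2b1-209 had 0, 10.6 and 16.4 TPM, Hnrnpk-229 had 6.68, 0 and 6.00 TPM, Hnrnpl-213 had 0, 4.04 and 4.35 TPM and Ptbp1-201 had 6.08, 6.49 and 4.60 TPM. Ptbp1-201 was the one of these 4 listed above 0 in every library. Hnrnpm, the remaining gene, averaged 203 ± 49.7 TPM (SD, n = 3), with 37.6% in retained_intron isoforms on average.

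**Figure D5:**
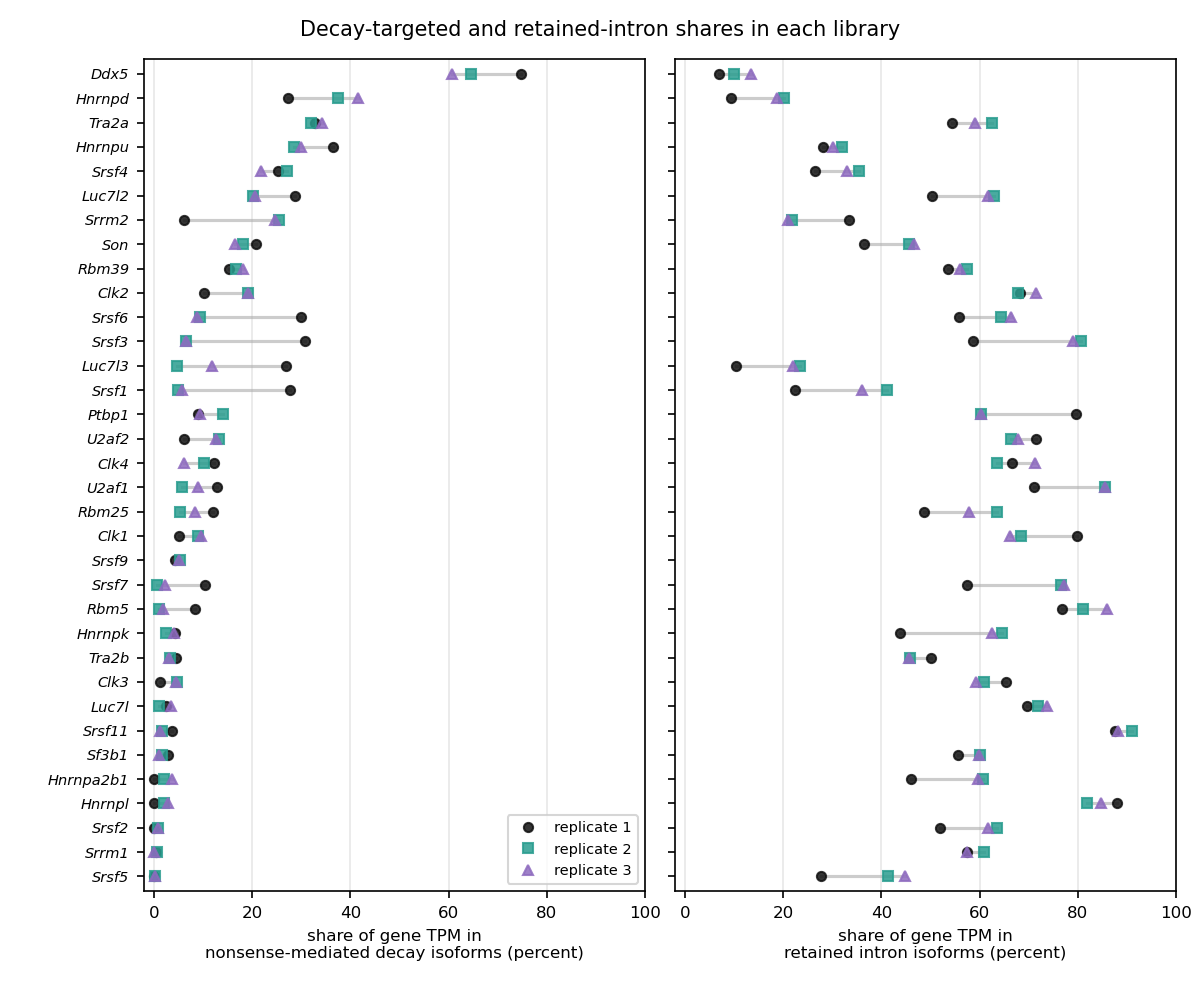
Share of gene TPM in nonsense_mediated_decay (left) and retained_intron (right) isoforms in each library, in percent, for the 34 genes with a nonsense_mediated_decay isoform, ordered by its mean. Grey bars join the lowest and highest library. Srsf1, Srsf3, Srsf6 and Luc7l3 show replicate 1 far to the right on the left panel, at 26.9% to 30.8%, Srrm2 shows the opposite, and Tra2a lies at 32.0% to 34.3% in all 3.

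Replicate 1 stood apart from the other libraries in these genes and in expressed protein-coding genes as a whole. Pearson correlations of replicate 1 with replicates 2 and 3 were 0.950 and 0.949 over the 40 genes, and 0.948 and 0.946 over 9245 genes. Between replicates 2 and 3 they were 0.996 over the 40 genes and 0.978 over the 9245. TPM was lowest in replicate 1 in 32 of the 40 genes, but the same held for 63.6% of all expressed protein-coding genes. On CPM scaled by TMM, a normalisation against composition differences, 28 of 40 were lowest in replicate 1, against a background of 44.4%. The retained_intron share was lowest in replicate 1 in 26 of 36 genes (background 48.7%). The nonsense_mediated_decay share was highest there in 17 of 34 genes, near the background of 45.6%. By the read-based values the decay-targeted share was highest in replicate 1 in 22 of 34 genes (background 48.2%). The SD of log2(CPM + 0.5) over libraries had a median of 0.23 over the 40 genes and of 0.29 over 17110 genes with at least 10 counts. Without replicate 1 these medians were 0.063 over the 40 genes and 0.15 over all genes. With all libraries and 2 in place of 0.5 added to CPM, they were 0.224 over the 40 genes and 0.203 over all genes. With no count filter they were 0.239 and 0.246, so the order of the medians depended on the setting. The 5 genes of highest SD were Hnrnpa2b1 (0.64), Srsf2 (0.54), Luc7l (0.54), Srsf3 (0.43) and Hnrnph1 (0.43), and all 5 were lowest in replicate 1.

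Other genes of the pathway, from lists written with earlier results of these data known, gave a frame for these values. Of 25 core small nuclear ribonucleoprotein and U2 genes 23 were expressed, Snrnp70 was the highest at 195 ± 32.9 TPM (SD, n = 3), Sf3b5 at 0.33 ± 0.11 TPM was one of the others, and 8 of the 19 with a retained_intron isoform exceeded 50% in every library. Of 26 tri-snRNP and Prp19 complex genes all were expressed, from Plrg1 at 8.0 ± 1.31 to Prpf38b at 174 ± 34.7 TPM, and 11 of 21 exceeded 50%. Both lists reached lower levels than the highest of the 40 genes. Of 9 other kinases and partners of SR proteins all were expressed, from Dyrk1b at 5.02 ± 0.76 to Prpf4b at 89.2 ± 18.9 TPM, and 1 of 6 exceeded 50%. Of 49 further RNA-binding splicing regulators 44 were expressed, Srsf12 was listed at 0, and 12 of 34 exceeded 50%. The first 2 lists had median retained_intron shares of 54.2 ± 5.06% and 54.1 ± 1.30%, between the 47.0% of expressed protein-coding genes and the 58.5% of the 40 genes. The further regulators had 49.6 ± 5.36%, and the SR kinases and partners had 36.0 ± 5.95%. For the counts over 50% the background was 33.3%.

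The machinery of nonsense-mediated decay was present at lower levels. All 18 of its factors were expressed, from Magoh at 2.85 ± 1.00 to Smg1, the kinase that phosphorylates Upf1, at 152 ± 43.5 TPM (SD, n = 3 each), and 5 of the 11 with a retained_intron isoform exceeded 50% in every library. All 19 genes of nuclear RNA decay and export were expressed, from Nxt1 at 1.64 ± 0.53 to Nxf1, the mRNA export receptor, at 270.2 ± 29.2 TPM, and 4 of 16 exceeded 50%. For these counts over 50% the background was again 33.3%. The median retained_intron share was 46.8 ± 14.2% in the decay factors and 40.6 ± 6.22% in the decay and export genes. Nonsense_mediated_decay isoforms exceeded 10% in every library in 1 of 4 decay factors and in 4 of 9 decay and export genes, against a background of 22.9%.

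The values rest on how reads were divided among overlapping isoforms. Between the alignment-based and read-based quantifications the median absolute difference per gene was 2.34 percentage points for the retained_intron share and 2.40 for the nonsense_mediated_decay share, and 28 of 36 and 29 of 34 genes differed by under 10 points. By expected counts in place of TPM, the mean retained_intron share moved by over 1.5 times in 12 of 36 genes. Besides those given above, it was 38.6% in Sf3b1, 32.2% in Rbm39, 35.1% in Hnrnpk and 1.9% in Ddx5, all lower than by TPM. The nonsense_mediated_decay share moved as far in 15 of 34 genes by expected counts and in 13 of 34 by the read-based values. It was lower by expected counts in Srsf1 (4.2%), Srsf3 (9.5%), Srsf4 (9.2%), Srsf6 (9.3%), Clk4 (4.0%) and Luc7l3 (9.1%), and higher by the read-based values in Rbm39 (34.0%), Srsf9 (10.7%) and Srsf11 (8.3%). Of the 40 genes 18 overlap a gene on the opposite strand, 16 of them an expressed one, and 9 overlap a gene on their own strand.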

How the data were processed

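The authors estimated expected counts per gene and isoform from alignments before deposit, in columns as RSEM names them per the file headers. The authors also deposited TPM values, which divide such counts by length and scale each library to 1 sum, and read-based estimated counts and TPM per isoform in columns as kallisto names them. The deposited notes name mm10 and GENCODE M21. Bounds of the program's TPM interval, also deposited by the authors, are not printed, since their level is not stated. For program versions, settings and strand use nothing was found: not given in the sources used here.

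The 40 genes and the other lists were chosen with earlier results of these data known. Symbols, isoform types and exons come from GENCODE M21. Expressed means 1 TPM or more in all 3 libraries. An isoform type's share is its summed TPM over that of the gene, per library, among genes with such an isoform. CPM were scaled by TMM from rounded expected counts (edgeR 4.0.16, R 4.3.3; pandas 2.3.3, matplotlib 3.10.9). With 1 group no test was made. The code was tested on simulated data. Values in every library are given for 36 genes: per role the 2 highest and the lowest by TPM, the 8 highest and 4 lowest by retained_intron share, the 8 highest by nonsense_mediated_decay share, the 5 of highest SD, Clk1 to Clk4 and Srsf1 to Srsf7. Every setting was also replaced in turn: expression at 0.5 or 5 TPM, a pseudocount of 0.01 or 1, share thresholds of 30% and 20%, CPM, rescaled TPM, shares of counts, read-based values, DESeq2 1.42.0 size factors, a prior of 2, no filters, and each replicate left out. The highest gene of 1 other list is not reported here.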

Additional observations from a re-analysis of the deposited data

How the results depend on the processing

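Of 42 summary values recomputed with all libraries, 38 were kept and 4 moved. Kept means within the spread between libraries, within 1.5 times for counts, or, for the median SD, within the SD over the 40 genes. For counts only the number among the 40 genes was compared, not its background. The median level of the 40 genes was 7.95 (log2) with CPM in place of TPM and 8.59 with rescaled TPM, against 4.90 for all expressed protein-coding genes under rescaled TPM. The median nonsense_mediated_decay share was 9.71% by the read-based values, and the median protein_coding share was 35.6% by expected counts, against 76.6% over all genes. The median SD of log2 CPM ranged between 0.063 and 0.27 when each replicate was left out, with the lowest value without replicate 1. The cause was not tested. The number of genes with over 50% in retained_intron isoforms was 15 by the read-based values (background 34.4%) and 24 without replicate 1 (background 41.2%), against 21 (background 33.3%). Of 180 values of single genes recomputed from read-based values or expected counts, 105 kept within the spread and 75 moved. Means of single genes without 1 replicate are not counted, since they can hardly leave that spread. No paired analysis was possible because there is 1 group. Depth limits the isoforms of few counts, such as Srsf7-203 at 8.4 expected counts in replicate 2.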
